A study of Homo sapiens with 9 samples.

Results

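The mRNAs of 7 RNA-binding proteins that act on circular RNA formation, QKI, ADAR, DHX9, HNRNPL, MBNL1, MBNL2 and SRSF1, were followed across chemoresistant and chemosensitive colorectal cancer cells. They were chosen by name from the literature on back-splicing, though with earlier results of these data known. All 7 were present among the 19976 genes of the mRNA table. HCT8 is an established line of human colorectal adenocarcinoma. HCT8/DDP cells were derived from it under rising concentrations of cisplatin, which crosslinks DNA, over more than 7 months and were kept in 1 μg/ml of the drug. HCT8/5-Fu cells were derived in the same way under the thymidylate synthase inhibitor 5-Fu and were kept in 5 μg/ml, while parental HCT8 cells received no drug. Each line had 3 libraries, 9 in all, and each drug is represented by 1 resistant line. Whether the replicates came from separate cultures is not stated, so the p-values reflect only how far these libraries scatter, and that scatter may be technical.

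A circRNA forms when the splicing machinery joins the end of a downstream exon to the start of an upstream one, a reaction called back-splicing. It is favoured when the introns on either side are brought together, either by base pairing of inverted Alu repeats or by proteins bound to both introns. QKI and the muscleblind proteins bind flanking introns and can bridge them, ADAR and DHX9 disrupt paired Alu repeats, and HNRNPL and SRSF1 are splicing regulators whose depletion alters circRNA levels. In epithelial tumours, QKI is best known for the circRNAs it raises during epithelial-mesenchymal transition.

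The mRNA libraries held 26775644 to 27923262 counts in HCT8/DDP, 19848095 to 28535882 in HCT8/5-Fu and 19753035 to 23439814 in HCT8. It is not stated if these counts came from libraries in which RNase R had removed linear RNA. If so, the levels called mRNA here would be those of residual linear RNA together with reads of circular RNA. Replicate 1 of HCT8/5-Fu and replicate 1 of HCT8 were the shallowest and stood apart from the others of their lines, with a mean chi-square per gene of 93.1 to 97.6 and 43.3 to 50.5 against replicates 2 and 3, while replicates 2 and 3 differed by 5.08 and 4.67. Depth was not their only difference. Mitochondrial counts made up 2.75% against 3.61% and 3.70% in HCT8/5-Fu, and 4.75% against 7.02% and 6.71% in HCT8. Histone counts made up 0.34% against 0.84% and 0.82%, and 0.83% against 1.06% and 1.02%. Both libraries are called shallow below. The 7 mRNAs in HCT8/5-Fu against HCT8 were therefore also fitted without both of them. The 12 defining markers of colorectal epithelium all reached 1 CPM (counts scaled to 1000000 per library) in every library, and their summed level was 9645 to 10975 CPM in HCT8/DDP, 13511 to 16072 CPM in HCT8/5-Fu and 5697 to 6880 CPM in HCT8. The 12 markers of other cell types summed to 29.3 to 34.1, 20.2 to 32.2 and 17.2 to 20.2 CPM in the same order of lines, and 3 of them, the leukocyte genes PTPRC and CD3E and the melanocyte gene MLANA, had no count in any library. In each library 3 to 5 of the 12 reached 1 CPM, and counts were 54 to 264 for COL1A1, 65 to 129 for PDGFRB, 51 to 438 for ACTA2 and 13 to 91 for CD14. Relative to HCT8, the log2 fold change in HCT8/DDP and HCT8/5-Fu was 2.27 and 2.29 for ACTA2 and -0.69 and -1.875 for CD14. The part of these differences in the results on the RNA-binding proteins was not tested.

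Of the 7 mRNAs, 4 changed in HCT8/DDP and 2 in HCT8/5-Fu relative to HCT8 in edgeR's quasi-likelihood test with Benjamini-Hochberg adjustment over all genes, at an adjusted p under 0.05. MBNL2 rose in both resistant lines. In HCT8/DDP, ADAR also rose, while MBNL1 and HNRNPL fell, and in HCT8/5-Fu SRSF1 rose. QKI and DHX9 passed the test in neither line. The background of change was large, since 52.5% of the 13373 genes tested passed in HCT8/DDP (27% higher and 25.5% lower) and 38.7% of 13228 passed in HCT8/5-Fu (20.4% higher and 18.3% lower). The counts of 4 of 7 and 2 of 7 are near these shares and do not set the 7 mRNAs apart from other genes. When 1 library was left out, 3 to 4 of the 7 and 5821 to 8024 of all genes were called in HCT8/DDP. In HCT8/5-Fu it was 0 of the 7 without HCT8 replicate 2 and 4 without HCT8/5-Fu replicate 1, 1 in each of the other 4 fits, and 5 without both shallow libraries. Of all genes, 3287 were called there without HCT8 replicate 2, 3274 without HCT8 replicate 3, 7533 without HCT8/5-Fu replicate 1 and 9777 without both shallow libraries. None of the 7 passed the test with a change beyond 2-fold, which 16.2% of all genes did in HCT8/DDP and 16.4% in HCT8/5-Fu, and the largest absolute log2 fold change among them was 0.60, in MBNL2. Their median absolute log2 fold change was 0.39 in HCT8/DDP and 0.16 in HCT8/5-Fu, beside 0.38 and 0.40 over all genes tested.

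**Figure D1:**
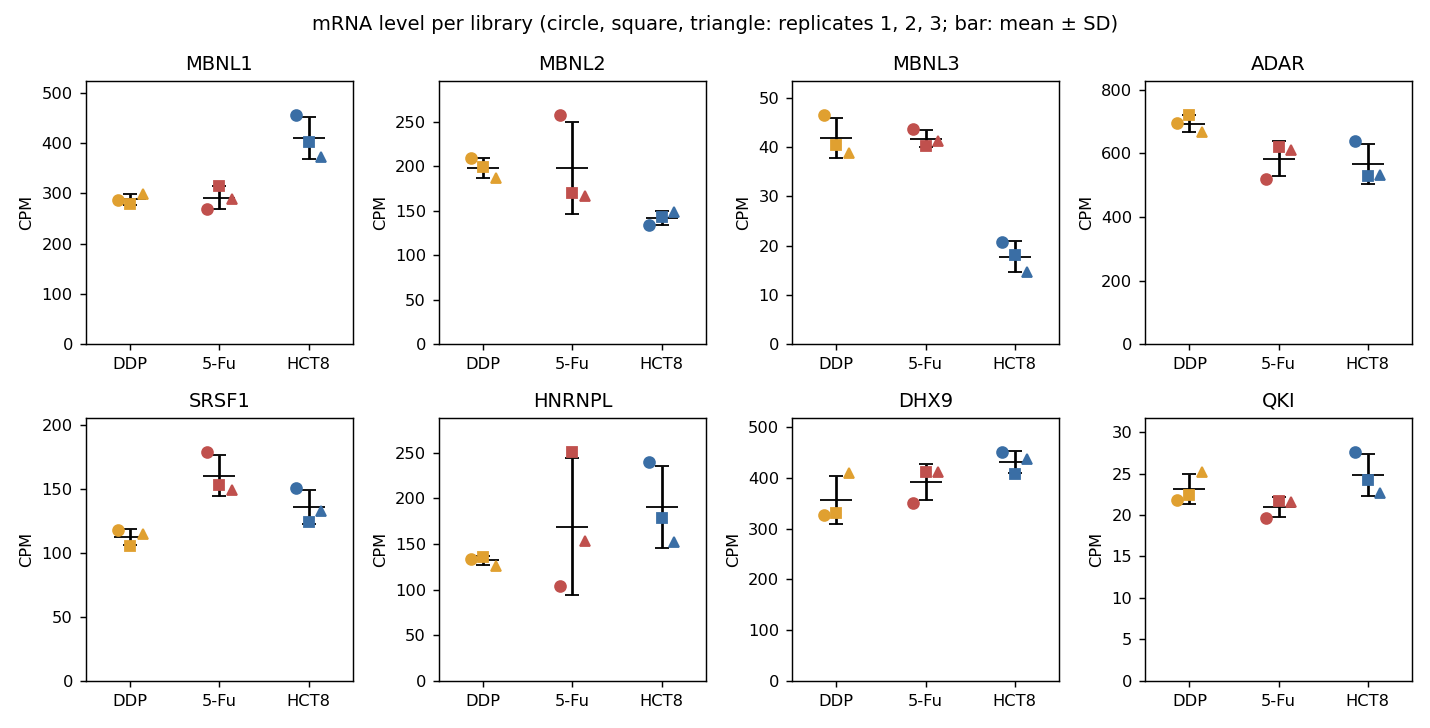
Level in CPM (y axis, from 0) of the 7 mRNAs and of MBNL3 in each library of HCT8/DDP, HCT8/5-Fu and HCT8 (x axis). Circles, squares and triangles are replicates 1, 2 and 3, and the bars give the mean ± SD (n = 3). MBNL1 lies at 269 to 315 CPM in the 6 resistant libraries and at 372 to 455 CPM in HCT8, MBNL2 and MBNL3 lie the other way round, and HNRNPL spreads widely in HCT8/5-Fu and HCT8.

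The muscleblind-like genes MBNL1 and MBNL2 encode zinc-finger proteins that bind YGCY motifs. They regulate alternative splicing during development, and the fly muscleblind protein promotes a circRNA from its own gene. MBNL1 (ENSG00000152601, GRCh38 chromosome 3, 152243828 to 152465780, plus strand) was measured at 286, 278 and 298 CPM in HCT8/DDP, 269, 315 and 288 CPM in HCT8/5-Fu, and 455, 402 and 372 CPM in HCT8. All 6 resistant libraries lay below all 3 HCT8 libraries. The log2 fold change was -0.39 ± 0.10 (SE) in HCT8/DDP with an edgeR adjusted p of 0.0048, and each of the 6 fits that left out 1 library kept this call, at -0.44 to -0.33. In HCT8/5-Fu it was -0.38 ± 0.14 with an edgeR adjusted p of 0.065, which missed the threshold. There the adjusted p was 0.0207 with DESeq2, 0.0171 when the counts were scaled by library totals, and 0.0484 at a log2 fold change of -0.27 without HCT8/5-Fu replicate 1. It was 1.14e-04 at -0.22 without both shallow libraries, a fit on 2 libraries per line, and up to 0.169 over all 13 alternatives.

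MBNL2 (ENSG00000139793, chromosome 13, 97221434 to 97394120, plus strand) reached 209, 199 and 187 CPM in HCT8/DDP, 258, 170.2 and 167 CPM in HCT8/5-Fu, and 134, 144 and 149 CPM in HCT8. Again the resistant libraries did not overlap with those of HCT8, now from above, and HCT8/5-Fu replicate 1 was the highest of all. MBNL2 rose by 0.60 ± 0.09 (SE) on the log2 scale in HCT8/DDP with an edgeR adjusted p of 1.92e-04, and all 12 alternatives kept the call, with adjusted p up to 0.0034. It rose by 0.57 ± 0.15 in HCT8/5-Fu with an edgeR adjusted p of 0.0169. This call was lost without HCT8 replicate 1 (log2 fold change of 0.50, adjusted p of 0.0537), without HCT8 replicate 2 (0.59, 0.0563) and with library totals (0.48, 0.0601), the highest adjusted p of the 13 alternatives, while the fit without both shallow libraries gave 0.35 and kept it.

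Set beside each other as FPKM, which divides the count by the length of the gene's transcripts as well as by depth, the order of MBNL1 and MBNL2 differed between the lines. In HCT8/DDP, MBNL2 exceeded MBNL1 in all 3 libraries, with MBNL2 to MBNL1 ratios of 1.49, 1.46 and 1.27. In HCT8/5-Fu the ratios were 1.95, 1.10 and 1.18, and in HCT8 they were 0.60, 0.73 and 0.81. The ratio was thus above 1 in the 6 resistant libraries and below 1 in the 3 parental ones, and since it is formed within a library it does not depend on the scaling between libraries. It does depend on the lengths used, 9989 bases for MBNL1 and 4908 for MBNL2. By CPM, MBNL1 exceeded MBNL2 in every library of all lines, so the change of order is seen only after division by length. It was chosen after the levels had been seen and is a description with no test. Over the 9 libraries, Pearson's r of log2 CPM between MBNL1 and MBNL2 was -0.88, the most negative of the 21 pairs that the 7 genes form, and these points share lines and library depths. The third family member, MBNL3, rose in both lines with a log2 fold change of 1.36 ± 0.13 (SE) in HCT8/DDP (edgeR adjusted p of 2.4e-06) and 1.34 ± 0.14 in HCT8/5-Fu (1.77e-04). It was measured at 46.5, 40.4 and 38.8 CPM in HCT8/DDP, 43.7, 40.3 and 41.2 CPM in HCT8/5-Fu, and 20.7, 18.1 and 14.6 CPM in HCT8, so that the resistant libraries did not overlap with the parental ones.

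**Figure D2:**
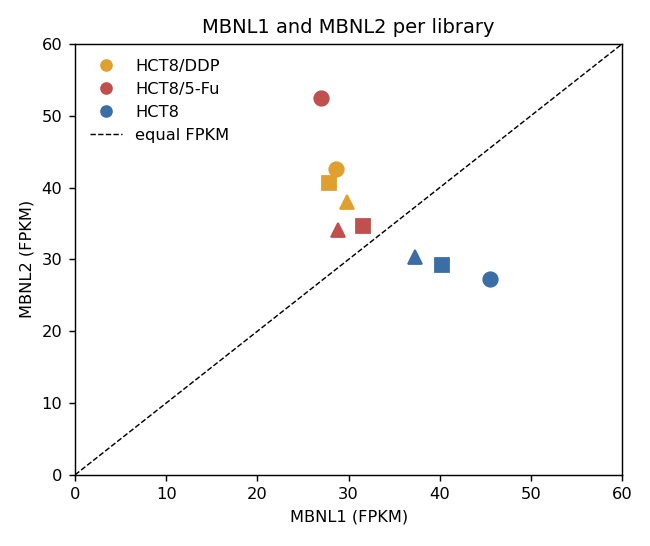
MBNL1 (x axis) against MBNL2 (y axis), both in FPKM on linear axes from 0, with 1 point per library and the dashed line at equal FPKM. Circles, squares and triangles are replicates 1, 2 and 3. The 6 libraries of HCT8/DDP and HCT8/5-Fu lie above the line, at ratios of 1.10 to 1.95, and the 3 of HCT8 below it, at 0.60 to 0.81. By CPM, without division by length, MBNL1 exceeds MBNL2 in every library.

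ADAR deaminates adenosine to inosine in double-stranded RNA, which weakens the pairing of Alu repeats in flanking introns, and its depletion raises many circRNAs. ADAR (ENSG00000160710, chromosome 1, 154582057 to 154628013, minus strand) was measured at 695, 719.9 and 668 CPM in HCT8/DDP, 521, 619 and 610.4 CPM in HCT8/5-Fu, and 638, 529 and 531 CPM in HCT8. All 3 HCT8/DDP libraries lay above every other library, while those of HCT8/5-Fu overlapped with HCT8. ADAR rose by 0.42 ± 0.10 (SE) on the log2 scale in HCT8/DDP with an edgeR adjusted p of 0.00366, and all 12 alternatives kept this call. In HCT8/5-Fu the log2 fold change was 0.16 ± 0.16 with an edgeR adjusted p of 0.452. Without HCT8/5-Fu replicate 1, whose ADAR level was the lowest of the 9 libraries, it was 0.29 with an adjusted p of 0.0368, and without both shallow libraries 0.35. The adjusted p ranged from 3.05e-10 to 0.825 over 13 alternatives, the lowest from the fit without both shallow libraries, on 2 libraries per line. The difference between the resistant lines was 0.24 on the log2 scale with an edgeR adjusted p of 0.342, and was not called. The related editing enzyme ADARB1 passed the test in neither line, with log2 fold changes of -0.07 in HCT8/DDP and 0.20 in HCT8/5-Fu.

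DHX9 is an RNA helicase that unwinds paired Alu repeats and interacts with an isoform of ADAR, and it too limits circRNA formation. DHX9 (ENSG00000135829, chromosome 1, 182839347 to 182887982, plus strand) was measured at 327, 330.5 and 410.1 CPM in HCT8/DDP, 350.3, 411 and 412 CPM in HCT8/5-Fu, and 451, 408 and 437 CPM in HCT8. The libraries of both resistant lines overlapped with those of HCT8. Its log2 fold change was -0.16 ± 0.11 (SE) in HCT8/DDP with an edgeR adjusted p of 0.259 and -0.03 ± 0.15 in HCT8/5-Fu with one of 0.89. In HCT8/DDP it was called without HCT8/DDP replicate 3, at -0.28 with an adjusted p of 0.0394, and with library totals, at -0.28 with 0.0444, in a range of 0.0394 to 0.598 over 12 alternatives. DHX30, a helicase of the same family, rose by 0.55 in HCT8/DDP and 0.88 in HCT8/5-Fu on the log2 scale, with edgeR adjusted p of 0.00392 and 0.00551.

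SRSF1 is a serine/arginine-rich protein that binds exonic splicing enhancers and promotes the use of nearby splice sites. SRSF1 (ENSG00000136450, chromosome 17, 58000919 to 58007346, minus strand) was measured at 118, 105 and 114 CPM in HCT8/DDP, 179, 153 and 149 CPM in HCT8/5-Fu, and 150.4, 124 and 133 CPM in HCT8. The 3 libraries of HCT8/DDP lay below all others, and HCT8/5-Fu overlapped with HCT8 only through HCT8 replicate 1. SRSF1 rose by 0.34 ± 0.11 (SE) on the log2 scale in HCT8/5-Fu with an edgeR adjusted p of 0.0337. This call was lost in 4 of the 6 fits that left out 1 library, namely without HCT8/5-Fu replicate 2 (adjusted p of 0.102) or replicate 3 (0.0905) and without HCT8 replicate 2 (0.150) or replicate 3 (0.135), with log2 fold changes of 0.30 to 0.39 over the 6, and it was also lost with library totals (0.24, 0.166) and without a filter on low counts (adjusted p of 0.0502). Without both shallow libraries SRSF1 rose by 0.38 with an edgeR adjusted p of 1.68e-09, in a fit that rests on 2 libraries per line that are much alike. In HCT8/DDP the log2 fold change was -0.15 ± 0.09 with an edgeR adjusted p of 0.19, which fell to 0.0324 with library totals, at -0.27, in a range of 0.0324 to 0.492 over 12 alternatives.

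SRSF1 was the only one of the 7 mRNAs that differed between HCT8/DDP and HCT8/5-Fu when these were compared directly, where 2.27% of 13012 genes passed the test (1.51% higher and 0.753% lower in HCT8/DDP) and 0.661% passed it beyond 2-fold. It was lower in HCT8/DDP by a log2 fold change of -0.51 ± 0.09 (SE) with an edgeR adjusted p of 0.0385, and the libraries of the lines did not overlap. The estimate stayed between -0.54 and -0.46 over 12 alternatives, while the adjusted p lay between 3.52e-05 and 0.244. The call was lost with library totals (0.0504), with the replicate number as a block (0.118) and in 5 of the 6 fits that left out 1 library, all but the one without HCT8/5-Fu replicate 1. The count of all genes called in this comparison itself ranged from 0 to 3929 in those 6 fits, with 3929 without HCT8/5-Fu replicate 1.

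HNRNPL binds CA-rich intronic and exonic elements and acts as an activator or a repressor of splicing according to where it binds. HNRNPL (ENSG00000104824, chromosome 19, 38836388 to 38852347, minus strand) was measured at 134, 136 and 126 CPM in HCT8/DDP, 104, 251 and 153 CPM in HCT8/5-Fu, and 240.0, 179 and 153 CPM in HCT8. The HCT8/DDP libraries agreed closely and lay below those of HCT8, whereas those of HCT8/5-Fu spanned both. The coefficient of variation of its CPM was 3.86% in HCT8/DDP, but 44.3% in HCT8/5-Fu and 23.6% in HCT8, above that of 96.1% and 93.7% of 9865 genes with a mean of at least 10 CPM. HNRNPL fell by 0.40 ± 0.13 (SE) on the log2 scale in HCT8/DDP with an edgeR adjusted p of 0.0173. The call was lost without HCT8/DDP replicate 2 (0.0508) or replicate 3 (0.066) and in the fit of all 9 libraries (0.261), in a range of 0.00319 to 0.261 over 12 alternatives, and the fold change was -0.23 without HCT8 replicate 1.

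In HCT8/5-Fu the sign of the HNRNPL change depended on single libraries. With all 6 libraries the log2 fold change was -0.03 ± 0.32 (SE) and the edgeR adjusted p 0.941. It was 0.26 without HCT8/5-Fu replicate 1, 0.13 without HCT8 replicate 1, 0.02 without HCT8/5-Fu replicate 3 and -0.47 without HCT8/5-Fu replicate 2, none of them called. Without both shallow libraries it was 0.43 and called, with an adjusted p of 4.76e-10, in a fit that rests on 2 libraries per line. Between the resistant lines the log2 fold change of HCT8/DDP over HCT8/5-Fu was -0.38 with an edgeR adjusted p of 0.513, and -0.68 with 0.00396 without HCT8/5-Fu replicate 1. Its paralog HNRNPLL passed the test in neither line, with log2 fold changes of -0.12 in HCT8/DDP and -0.31 in HCT8/5-Fu and edgeR adjusted p of 0.27 and 0.052.

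QKI is a STAR-family protein that binds ACUAAY motifs as a dimer. QKI (ENSG00000112531, chromosome 6, 163414000 to 163578592, plus strand) was measured at 21.8, 22.4 and 25.1 CPM in HCT8/DDP, 19.6, 21.7 and 21.6 CPM in HCT8/5-Fu, and 27.6, 24.2 and 22.6 CPM in HCT8. HCT8/DDP overlapped with HCT8, while the CPM of all 3 HCT8/5-Fu libraries lay just below those of HCT8. The log2 fold change was 0.02 ± 0.12 (SE) in HCT8/DDP with an edgeR adjusted p of 0.897 and -0.13 ± 0.15 in HCT8/5-Fu with one of 0.512, and it was called under none of the 12 and 13 alternatives. A relative of QKI in the STAR family, KHDRBS3, fell by 0.97 in HCT8/DDP and 0.85 in HCT8/5-Fu on the log2 scale, with edgeR adjusted p of 6.54e-04 and 0.0218. KHDRBS3 was measured at 4.41, 5.19 and 5.6 CPM in HCT8/DDP, 4.18, 6.76 and 5.50 CPM in HCT8/5-Fu, and 11.04, 11.5 and 9.86 CPM in HCT8, without overlap between resistant and parental libraries.

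**Figure D3:**
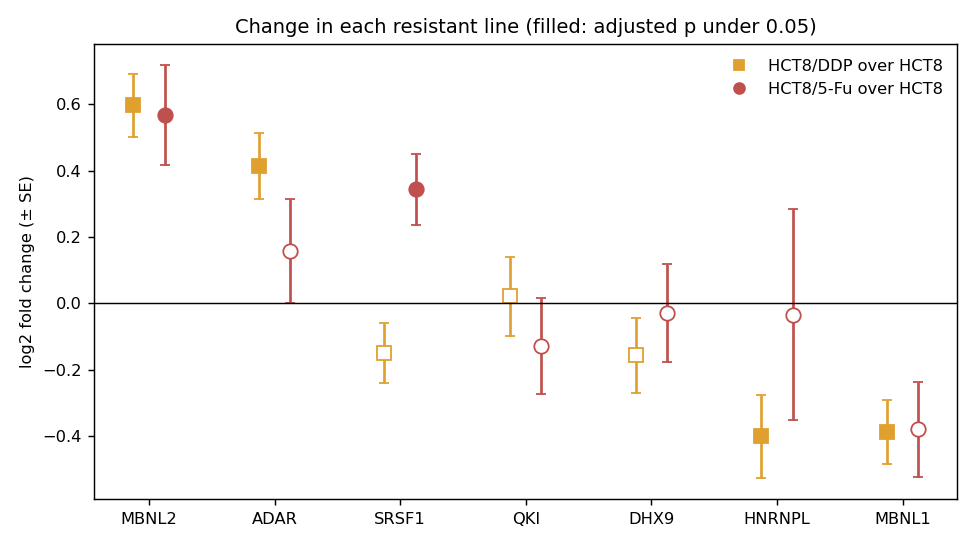
Log2 fold change (y axis, bars ± SE, n = 3 libraries per line) of the 7 mRNAs (x axis) in HCT8/DDP over HCT8 (squares) and HCT8/5-Fu over HCT8 (circles), filled where the edgeR adjusted p was under 0.05. MBNL2 is filled in both lines at 0.60 and 0.57, MBNL1 lies at -0.39 and -0.38, and QKI lies near 0. Both series share the 3 HCT8 libraries.

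Both comparisons with HCT8 use the same 3 HCT8 libraries, so the values of the resistant lines are not independent of each other. Fold changes were scaled by TMM factors. CPM, and with them every statement on the overlap of libraries, were scaled by library totals instead. TMM factors over the 9 libraries ran from 0.93 in HCT8/5-Fu replicate 2 to 1.09 in HCT8 replicate 1, so overlap may differ under TMM. This applies to QKI and SRSF1 in HCT8/5-Fu, where the gap or the overlap in CPM was narrow. Scaling by library totals moved the median log2 fold change over all genes to -0.13 in HCT8/DDP, against -0.01 with TMM, and to -0.11 in HCT8/5-Fu, against 0.00 with TMM, and the share of calls that were higher moved to 38.4% and 41.3%, against 51.5% and 52.6% with TMM. MBNL2, ADAR, SRSF1, MBNL1 and HNRNPL kept their direction against HCT8 under this scaling in both lines, whereas QKI in HCT8/DDP turned to -0.10.

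By FPKM, ADAR and DHX9 were the most abundant of the 7 mRNAs in every line and QKI the least. ADAR averaged 72.1 ± 2.69 FPKM in HCT8/DDP, 60.6 ± 5.65 in HCT8/5-Fu and 58.8 ± 6.47 in HCT8, and DHX9 averaged 60.3 ± 7.99, 66.3 ± 6.002 and 73.2 ± 3.69 FPKM (SD, n = 3 each). These neighbours overlapped in their range over libraries in HCT8/DDP and HCT8/5-Fu and did not in HCT8, where the lowest DHX9 value was 69.2 and the highest ADAR value 66.3 FPKM. QKI averaged 1.33 ± 0.10 FPKM in HCT8/DDP, 1.21 ± 0.07 in HCT8/5-Fu and 1.43 ± 0.15 in HCT8. The remaining 4 mRNAs averaged 19.4 to 41.0 FPKM. The FPKM of QKI is divided by a transcript length of 17364 bases, the longest of the 7, beside 4908 to 9989 bases for the others.

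For each of the 7 mRNAs, the genes of most similar pattern were sought by Pearson's r of log2 CPM over the 9 libraries, among 9865 genes. These r are descriptions, since the libraries share lines and depth. MBNL1 was followed most closely by PAXIP1, MELK and FANCM (0.98 each), and MBNL2 by PSAP, UBE2H and COL16A1 (0.97 to 0.98). PSAP, which encodes the precursor of the saposins, averaged 514 CPM in HCT8/DDP, 511 CPM in HCT8/5-Fu and 384 CPM in HCT8. ADAR was closest to TP73, HIP1 and PANX2 (0.97 to 0.99), SRSF1 to GTF2H2C, GUF1 and SELENOI (0.98 each), QKI to VASH2, SIN3A and ELMO2 (0.91 to 0.96), and DHX9 to EXOSC2, PHB and STARD7 (0.93 to 0.95). HNRNPL had the loosest neighbours, PPP3R1, USP7 and HNRNPD, at 0.88 to 0.93.

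Other genes of the same families and pathways were read from lists, whose counts stand beside 52.5% of all genes called in HCT8/DDP and 38.7% in HCT8/5-Fu. Of 18 family relatives tested, 3 rose and 2 fell in HCT8/DDP, and 5 rose and 1 fell in HCT8/5-Fu, with median log2 fold changes of -0.08 and 0.09. Besides MBNL3, DHX30 and KHDRBS3, SRSF8 rose by 0.96 and 1.29 on the log2 scale in HCT8/DDP and HCT8/5-Fu. SRSF8 is a retrotransposed copy of SRSF2, and how reads shared by the copies were counted is not known. SRSF4 fell by 0.28 in HCT8/DDP.

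Of 21 further factors tied to back-splicing, 3 rose and 5 fell in HCT8/DDP, and none rose and 2 fell in HCT8/5-Fu, with medians of -0.03 and -0.03. In both lines the largest change was that of ESRP1, an epithelial splicing regulator, which fell by 1.05 ± 0.13 (SE) and 1.42 ± 0.12 on the log2 scale with edgeR adjusted p of 2.4e-05 and 5.4e-05. ESRP1 was measured at 31.0, 23.8 and 20.8 CPM in HCT8/DDP, 23.7, 17.7 and 17.8 CPM in HCT8/5-Fu, and 60.3, 55.6 and 53.8 CPM in HCT8, without overlap of resistant and parental libraries. ESRP2 fell by 0.44 and 0.36. In HCT8/DDP, HNRNPA2B1 fell by 0.42 and PTBP1, a repressor of exon inclusion, rose by 0.39.

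Of 20 core spliceosome genes, 6 rose and 4 fell in HCT8/DDP, and 6 rose and 1 fell in HCT8/5-Fu, with medians of 0.11 and 0.34. PRPF8, at the catalytic centre of the spliceosome, rose by 0.82 and 0.87 on the log2 scale, and SF3A1, a component of the U2 particle, by 0.67 and 0.86. CDC40, a second-step factor, fell by 0.51 and 0.55. Of 16 genes of circRNA export, modification and decay, 3 rose and 4 fell in HCT8/DDP, and 4 rose and 2 fell in HCT8/5-Fu, with medians of -0.10 and 0.03. AGO2, the slicing Argonaute, rose by 0.71 and 0.66, and ALKBH5, an N6-methyladenosine demethylase, by 0.58 and 0.64. METTL14, a subunit of the methyltransferase, fell by 0.54 and 0.61, and DDX39B, a helicase involved in circRNA export, by 0.42 in HCT8/DDP.

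The counts of these lists were unstable against single libraries. Over fits that left out 1 library, the calls ranged in HCT8/DDP from 4 to 9 for family relatives, 3 to 12 for further factors, 6 to 15 for the spliceosome and 5 to 10 for export and decay, and in HCT8/5-Fu from 3 to 9, 1 to 10, 1 to 14 and 2 to 8 for the same lists. Every gene of these 4 lists called in HCT8/DDP or HCT8/5-Fu kept its direction and call without the shallow libraries. Those fits called more of all genes, 8024 in HCT8/DDP and 9777 in HCT8/5-Fu, so keeping a call in them is a weak check. Of the genes named, SRSF4 lost its call in HCT8/DDP without HCT8/DDP replicate 1 or 2, HNRNPA2B1 without HCT8/DDP replicate 2 and PTBP1 without HCT8 replicate 3, with edgeR adjusted p of up to 0.0842, 0.0504 and 0.056. In HCT8/5-Fu the calls of ESRP2, CDC40 and AGO2 were each lost without replicate 2 or 3 of either line, that of PRPF8 without HCT8 replicate 2 or 3 or HCT8/5-Fu replicate 3, that of KHDRBS3 without any 1 HCT8 replicate or HCT8/5-Fu replicate 3, and that of ALKBH5 without HCT8 replicate 2, with edgeR adjusted p of up to 0.156. Between HCT8/DDP and HCT8/5-Fu, edgeR called no gene of the 4 lists with all libraries, beside 3, 2, 3 and 5 genes at an unadjusted p under 0.05, and DESeq2 called SRSF6, EWSR1, XPO4 and METTL3. Without HCT8/5-Fu replicate 1, edgeR called 8 family relatives, 9 further factors, 14 spliceosome genes and 6 of export and decay there, and 0 in each list when any other library was left out.

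miRNAs known to repress these mRNAs were read in small RNA libraries of the same lines, given as RPM (reads scaled to 1000000 per library). The miR-200 family represses QKI in epithelial cells, miR-23b, miR-218 and the miR-30 family repress MBNL1 or MBNL2, and miR-7 and miR-10 have been tied to SRSF1. With miR-23a, read as the relative of miR-23b, the list held 16 miRNAs. Of these, 3 passed the test (limma on log2(RPM + 1), adjusted p under 0.05 over all miRNAs) in HCT8/DDP and 3 in HCT8/5-Fu, beside 17.9% of 599 and 25.9% of 587 miRNAs tested. The mature sequences of some of the miRNAs discussed are given here for their seeds, bases 2 to 8, in capitals, which pair with the target. They are from RefSeq (GRCh38.p14), and the miR-30 family, miR-218-5p and miR-10b-5p are named only.
miR-200b-3p: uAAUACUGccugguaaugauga
miR-200c-3p: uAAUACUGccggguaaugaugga
miR-429: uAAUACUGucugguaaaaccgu
miR-200a-3p: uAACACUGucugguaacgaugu
miR-141-3p: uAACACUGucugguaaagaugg
miR-23a-3p: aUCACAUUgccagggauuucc
miR-23b-3p: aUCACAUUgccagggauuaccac
miR-7-5p: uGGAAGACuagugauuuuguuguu
miR-10a-5p: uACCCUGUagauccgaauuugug

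The miR-200 family falls into 2 seed groups, miR-200b, miR-200c and miR-429 with AAUACUG and miR-200a and miR-141 with AACACUG. The genes of miR-200b, miR-200a and miR-429 lie within a cluster on chromosome 1 (mature sequences from 1167160 to 1169076, plus strand) and those of miR-200c and miR-141 within another on chromosome 12 (6963742 to 6964176, plus strand). None of the 5 passed the test in either line, with log2 fold changes of -0.35 to -0.05 in HCT8/DDP and -0.13 to 0.46 in HCT8/5-Fu and limma adjusted p of 0.27 or more and 0.237 or more. Without HCT8 replicate 1, miR-429 was called in HCT8/DDP, at -0.51 with a limma adjusted p of 0.0496. miR-200b-3p, the most abundant, was measured at 13891, 17966 and 17160 RPM in HCT8/DDP, 20632, 17681 and 17497 RPM in HCT8/5-Fu, and 15463, 17913 and 17000 RPM in HCT8. The libraries of the lines overlapped, as they did for QKI mRNA in HCT8/DDP. miR-200a, miR-200c and miR-141 were highest in HCT8/5-Fu replicate 1, at 9758, 9434 and 945 RPM.

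miR-23a-3p and miR-23b-3p share the seed UCACAUU, yet in HCT8/5-Fu the first rose and the other fell. miR-23a-3p (chromosome 19, 13836595 to 13836615, minus strand) was measured at 1651, 1626 and 1794 RPM in HCT8/DDP, 1744, 1444 and 1480 RPM in HCT8/5-Fu, and 939, 636 and 527 RPM in HCT8. All resistant libraries lay above those of HCT8, and it rose by 1.31 ± 0.20 (SE) in HCT8/DDP and 1.19 ± 0.22 in HCT8/5-Fu on the log2(RPM + 1) scale with limma adjusted p of 0.00111 and 0.00454. miR-23b-3p (chromosome 9, 95085265 to 95085287, plus strand) was measured at 508, 554 and 594 RPM in HCT8/DDP, 538, 439 and 461 RPM in HCT8/5-Fu, and 635, 717 and 637 RPM in HCT8. It fell by 0.47 ± 0.14 in HCT8/5-Fu with a limma adjusted p of 0.0384, and its log2 fold change in HCT8/DDP was -0.26 with one of 0.229. The HCT8/5-Fu call of miR-23b-3p was lost in 4 of the 6 fits without 1 library, namely replicate 2 (0.163) or 3 (0.159) of HCT8/5-Fu and replicate 2 (0.152) or 3 (0.0985) of HCT8.

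Of the miR-30 family, miR-30b-5p rose by 0.69 ± 0.18 (SE) in HCT8/DDP with a limma adjusted p of 0.0252. It was measured at 324, 416 and 412 RPM in HCT8/DDP, 244, 243 and 268 RPM in HCT8/5-Fu, and 190.0, 269 and 258 RPM in HCT8. The call was lost without HCT8 replicate 3 (adjusted p of 0.0519) and without HCT8/DDP replicate 2 (0.112) or replicate 3 (0.108), at log2 fold changes of 0.63 to 0.75. The other 4 miR-30 miRNAs did not pass in either line by limma. miR-30c-5p in HCT8/DDP was at -0.38 with a limma adjusted p of 0.0911, and edgeR on recovered reads called it, at -0.34 with 0.0454. miR-218-5p was at 0 to 2.25 RPM in all libraries.

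miR-10b-5p rose in both lines, by 0.98 ± 0.19 (SE) in HCT8/DDP and 0.94 ± 0.20 in HCT8/5-Fu, with limma adjusted p of 0.00478 and 0.0101. It was measured at 2168, 2383 and 2324 RPM in HCT8/DDP, 2099, 2288 and 2302 RPM in HCT8/5-Fu, and 853, 1313 and 1407 RPM in HCT8, without overlap. miR-10a-5p, at 112140 to 164758 RPM the most abundant of the 16, did not pass in either line. miR-7-5p was measured at 46309, 35814 and 31036 RPM in HCT8/DDP, 15460, 44815 and 39717 RPM in HCT8/5-Fu, and 33021, 19835 and 19688 RPM in HCT8. Replicate 1 of HCT8/5-Fu was the lowest and replicate 1 of HCT8 the highest of its line. The log2 fold change of miR-7-5p in HCT8/DDP was 0.67 ± 0.24 with a limma adjusted p of 0.0853, which became 0.00689 with the replicate number as a block and 0.00114 (0.91) without HCT8 replicate 1. Between HCT8/DDP and HCT8/5-Fu, limma called none of the 15 miRNAs tested, beside 1.23% of 567 miRNAs, while 2 had an unadjusted p under 0.05 and edgeR on recovered reads called miR-30b-5p.

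**Figure D4:**
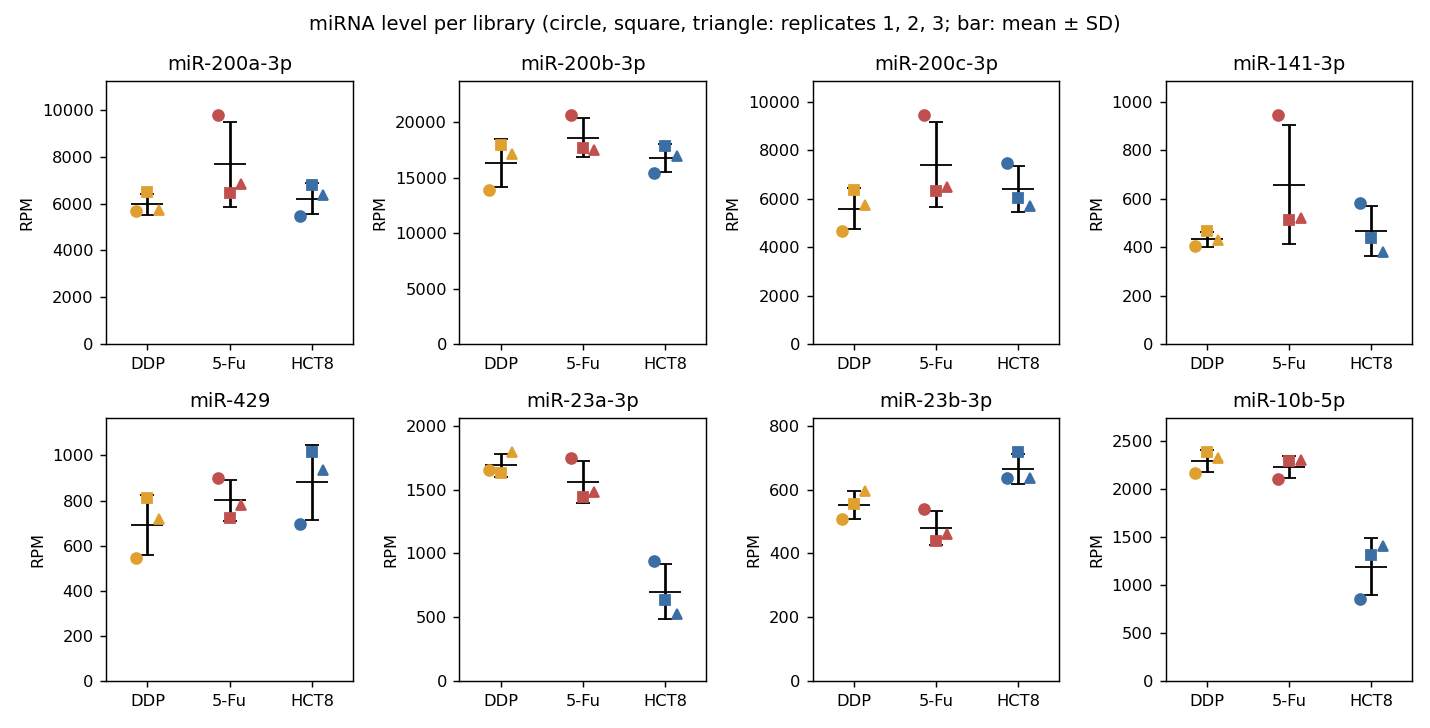
Level in RPM (y axis, from 0) of the 5 miR-200 family members, miR-23a-3p, miR-23b-3p and miR-10b-5p in each library of HCT8/DDP, HCT8/5-Fu and HCT8 (x axis), with the mean ± SD (n = 3). Circles, squares and triangles are replicates 1, 2 and 3. The miR-200 family overlaps between each resistant line and HCT8, while miR-141-3p lies at 403 to 467 RPM in HCT8/DDP and at 513 to 945 RPM in HCT8/5-Fu. miR-23a-3p lies at 1444 to 1794 RPM in the resistant libraries and at 527 to 939 RPM in HCT8.

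Against these levels stand the circRNAs themselves. Their values are whole reads across back-splice junctions scaled to 1000000 per library, and 100% of them were whole multiples of 1 read within 0.01 of a read. The libraries held 14637, 16906 and 15068 back-splice reads in HCT8/DDP, 8310, 15980 and 15862 in HCT8/5-Fu, and 8834, 17941 and 17882 in HCT8. They showed 3270, 3183 and 3423 circRNAs in HCT8/DDP, 2406, 3590 and 3804 in HCT8/5-Fu, and 2563, 3835 and 4035 in HCT8. The libraries with the fewest reads, again replicate 1 of HCT8/5-Fu and of HCT8, also had the fewest circRNAs.

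When each library was thinned to 8000 reads, which gives the expected number of circRNAs at equal depth, 2641 ± 90.1 were expected in HCT8/DDP, 2694 ± 284 in HCT8/5-Fu and 2779 ± 267 in HCT8 (SD, n = 3 each). The values overlapped in all 3 comparisons, and exact two-sided permutation tests gave p of 0.5 for HCT8/DDP against HCT8, 0.6 for HCT8/5-Fu against HCT8 and 0.8 for HCT8/DDP against HCT8/5-Fu (0.8 each after adjustment over the 3 comparisons), where 0.1 is the smallest p that 3 against 3 libraries allow. At equal depth the 2 shallow libraries still had the fewest circRNAs, 2374 in HCT8/5-Fu replicate 1 and 2476 in HCT8 replicate 1. With at least 2 reads required, the expected number was 1533 to 1556 in HCT8/DDP, 1514 to 1557 in HCT8/5-Fu and 1582 to 1592 in HCT8. By this measure the 3 HCT8 libraries lay above all 6 resistant ones.

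Back-splice reads per 1000000 mRNA counts were 542, 605 and 563 in HCT8/DDP, 419, 560.0 and 562 in HCT8/5-Fu, and 447, 773 and 763 in HCT8. The means were 570.0 ± 32.4, 514 ± 82.3 and 661 ± 185 (SD, n = 3 each), and exact permutation tests gave p of 0.4, 0.3 and 0.4 for HCT8/DDP against HCT8, HCT8/5-Fu against HCT8 and HCT8/DDP against HCT8/5-Fu. Replicates 2 and 3 of HCT8 were above all 6 resistant libraries and replicate 1 of HCT8 was below all but one. It is not stated if the mRNA counts were taken from the same libraries in which RNase R had enriched circRNAs. This ratio therefore cannot be read as a yield of circular over linear RNA. The levels of the 7 mRNAs and the number of circRNAs stand side by side here, and a relation between them was not tested.

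**Figure D5:**
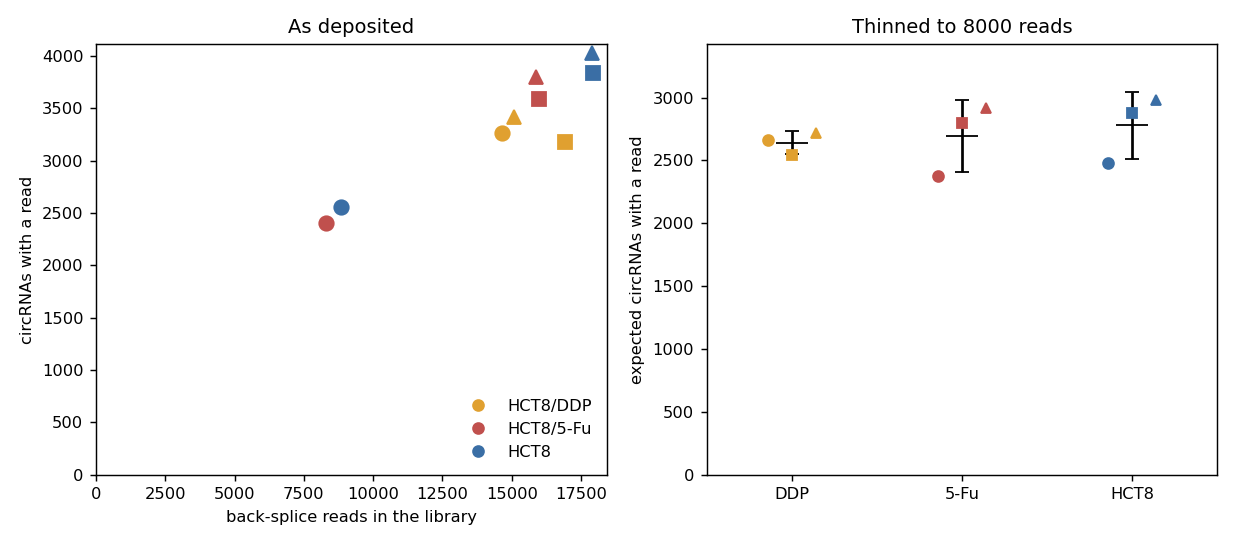
Left, circRNAs with a read (y axis) against back-splice reads (x axis) per library as deposited, on linear axes from 0, coloured by line, and right, the expected number when each library is thinned to 8000 reads, with the mean ± SD (n = 3). Circles, squares and triangles are replicates 1, 2 and 3. The shallow libraries lie lowest at 2406 and 2563 circRNAs as deposited, and at equal depth the lines overlap around 2641, 2694 and 2779.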

How the data were processed

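Total RNA of HCT8/DDP, HCT8/5-Fu and HCT8 cells (3 libraries each) was sequenced after rRNA removal and RNase R digestion. This is the only library preparation that the paper describes, and whether the mRNA counts came from it is not stated. The authors named HISAT2, find_circ and DESeq, without versions. The submitters' notes give mm9 as the build, but the gene coordinates of the mRNA table overlap GRCh38.p14 for 99.98% of 18792 genes matched by symbol and for all 7 members, so these coordinates are given as GRCh38. The deposited mRNA table holds a count and an FPKM value per gene, as made by the authors. The deposited circRNA and miRNA tables hold RPM. The lncRNA table was not used here. RefSeq sequences outside chromosome 8 were read for 13 of the 16 miRNAs, and not all of these are printed.

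Counts were tested with edgeR 4.0.16 (R 4.3.3, quasi-likelihood, TMM factors, filterByExpr) per comparison, with Benjamini-Hochberg adjustment over all genes tested. SE were obtained from the F statistic, as the absolute log2 fold change over its square root. CPM were scaled to library totals. miRNAs with at least 1 RPM in 3 libraries were compared on log2(RPM + 1) by limma 3.58.1 with trend. All miRNA values of up to 20 reads were whole multiples of 1 read within 0.1 of a read, which gave libraries of 529037 to 14087207 reads, and edgeR on these reads called 130, 154 and 23 miRNAs in HCT8/DDP against HCT8, HCT8/5-Fu against HCT8 and HCT8/DDP against HCT8/5-Fu. circRNA libraries were thinned exactly (hypergeometric), and means were compared by exact permutation (scipy 1.17.1).

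Alternatives were DESeq2 1.42.0, library totals, RLE factors, no filter, all 9 libraries in 1 fit, replicate number as a block, other pseudocounts (0.1 and 10), 4000 reads, and each library left out. Leaving out the shallow libraries was added after seeing the data. The labels give replicate numbers no meaning. Same-numbered libraries deviated together (r above 0.1 in all 3 pairs) only for miRNAs of HCT8/DDP and HCT8 (0.283, 0.273 and 0.137), where the blocked value is given if it changes a call.

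The 7 genes and all lists were chosen with earlier results of these data known. Of each list, up to 4 called genes of largest change that averaged 10 CPM or more in the higher line could be named, and ADARB1 and HNRNPLL were added after their values were seen.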

Additional observations from a re-analysis of the deposited data

Results flagged for a closer look

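SRSF1 differed between the resistant lines, with a log2 fold change of -0.508 for HCT8/DDP over HCT8/5-Fu (edgeR adjusted p of 0.0385). It was picked out because it passed this test, so the adjusted p is no separate evidence. SRSF1 was lower in all 3 HCT8/DDP libraries than in any HCT8/5-Fu library, and the adjusted p ranged from 3.52e-05 to 0.244 over 12 alternatives. The call was lost with library totals and with the replicate number as a block, and was kept in only 1 of the 6 fits that left out 1 library.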

How the results depend on the processing

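Of 259 checks of the 7 mRNAs under an alternative, 212 kept direction and call, and 19 lost and 11 gained the call at the same sign. The other 17 turned sign, with or without a change of call. Of 509 checks of miRNAs the numbers were 473, 9, 5 and 22. The causes were not tested, except that fits without a library have fewer samples. For HCT8/5-Fu against HCT8, 1 of the 7 mRNAs was called with library totals and 1 without a filter, and without both shallow libraries 5 of them and 9777 mRNAs in all were called, with QKI at 0.0266, DHX9 at 0.103 and HNRNPL at 0.43. Leaving out 1 library gave 0 to 4 of the 7 and 3274 to 7533 mRNAs in all, DHX9 at -0.0935 to 0.0979 and HNRNPL at -0.47 to 0.26. For HCT8/DDP against HCT8, QKI was -0.10 with library totals and -0.0546 to 0.0778 when leaving out 1 library.

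For HCT8/DDP against HCT8/5-Fu, 0 of the 7 were called with library totals and with the replicate block and 0 to 2 when leaving out 1 library. In all, 1283 mRNAs were called with DESeq2, 635 with all 9 libraries, 0 with the replicate block and 0 to 3929 when leaving out 1 library. MBNL2 was -3.72e-05 with library totals and -0.0721 to 0.17 when leaving out 1 library, where MBNL1 was -0.13 to 0.0708 and HNRNPL -0.68 to 0.0524. Replicate numbers did not pair the mRNA libraries, and the replicate block changed no call of the 7 mRNAs other than SRSF1 here.

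Among miRNAs, edgeR on recovered reads gave -0.0701 for miR-30a-5p and -0.0466 for miR-30b-5p in HCT8/5-Fu, 1 called miRNA of the list in HCT8/DDP against HCT8/5-Fu, and there 0.0399 for miR-30d-5p, 0.0525 for miR-30e-5p and 0.11 for miR-10a-5p. Leaving out 1 library in HCT8/5-Fu against HCT8 gave -0.0661 to 0.31 for miR-30a-5p, -0.0663 to 0.18 for miR-30b-5p and -0.27 to 0.10 for miR-30c-5p. In HCT8/DDP against HCT8 it gave 2 to 5 called miRNAs (5 without HCT8 replicate 1), -0.14 to 0.0111 for miR-200a-3p, -0.12 to 0.067 for miR-200b-3p, -0.23 to 0.0817 for miR-141-3p, -0.33 to 0.0909 for miR-30a-5p and -0.57 to 0.19 for miR-218-5p. In HCT8/DDP against HCT8/5-Fu it gave -0.28 to 0.0897 for miR-30d-5p, -0.18 to 0.59 for miR-7-5p, -0.0584 to 0.0186 for miR-10a-5p and -0.0031 to 0.0794 for miR-10b-5p. The replicate block also lost miR-23b-3p in HCT8/5-Fu (adjusted p of 0.072).

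The difference in circRNAs between HCT8/DDP and HCT8/5-Fu was 25.3 without thinning, 6.38 with at least 2 reads and -213 to 57.4 when leaving out 1 library, and between HCT8/5-Fu and HCT8 it was -236 to 75.4 when leaving out 1 library. In each library, 21.2% to 35.2% of the circRNAs rested on 1 read.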
